A study of Ovis aries and Bos taurus with 15 samples.

Results

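The genes described here copy the genome: they license and fire replication origins, make the new strands, supply nucleotides and rebuild chromatin behind the fork. A list of 54 such genes was matched to the array annotation, taking only probe sets that carry exactly 1 gene symbol, and 46 of the 54 were measured, by 63 probe sets. The array named 9155 genes in this way. The 8 members without such a probe set were MCM2, GINS1, GINS2, MCM10, POLE, HELLS, TIPIN and EXO1, and they were not analysed here.

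RNA was measured on 15 Affymetrix arrays with bovine probes, in 3 groups of 5 samples. The bovine control group was Bos taurus cells that the labels call BAEC, for which the labels give no added agent. The ovine groups were Ovis aries PAEC, the pulmonary endothelial cells of the study's title, which received either the DMSO vehicle or GW9662 at 5 µM for 24 h. All 3 groups were grown in DMEM with 10% FBS, and labelled cRNA was prepared from 1 µg of total RNA. GW9662 irreversibly blocks PPARγ, a nuclear receptor that acts on fatty acid handling genes and is also studied in endothelial growth. The study asked how blocking PPARγ alters gene expression in pulmonary endothelial cells. The labels do not tell whether the 5 samples of a group came from different cultures or sheep or cows. Each p-value therefore rests on the spread among these samples, which may be technical.

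Before a cell divides, the origin recognition complex loads the MCM helicase onto DNA with the help of CDC6 and CDT1, a step called licensing. Cyclin E with CDK2 and the DBF4-CDC7 kinase then fire the licensed origins, and the polymerases, held to DNA by the PCNA ring, copy both strands. Many of these genes are switched on together by E2F factors once the RB brake is released, so their transcripts are commonly low in resting endothelium and high in cells that divide in culture.

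Expression values are log2 units, in which a difference of 1 is a 2-fold change. Where a gene had several probe sets, the one with the highest mean over the 15 arrays stood for it, and a mean under 3 was treated as dim, since a value that low cannot be told from no expression. Of the 46 members, 42 had a mean of 3 or more, while E2F1, POLA2, PRIM1 and BRCA1 were dim. Differences were tested with limma on all 24016 probe sets, with Benjamini-Hochberg adjusted p-values and a threshold of 0.05. In cultured cells measured in bulk, fewer cells in S phase and less RNA per cell cannot be told apart. The 2 comparisons below share the ovine vehicle arrays, so a low or high vehicle value moves both in the same direction.

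Array medians over all probe sets ran from 3.18 to 3.27. The vehicle array of replicate 1 lay farthest from its group and held the lowest vehicle value for 19 of the 42 brighter members (45.2%), against 43.5% of all named genes with a mean of 3 or more. The value of 3′ probe sets minus that of 5′ probe sets over 6 control transcripts, a measure of RNA integrity, ran from 0.843 to 0.942 in bovine control, from 1.07 to 1.30 in vehicle and from 0.853 to 1.04 with GW9662. The vehicle group did not overlap either of the others on this measure (two-sided exact permutation p = 0.00794 in both comparisons, the smallest that 5 against 5 arrays allow). The gap was not shared by all 6 transcripts. GW9662 minus vehicle was 0.0098 for actin and 0.035 for GST, but −0.33 for ef1a, −0.30 for gapd, −0.45 for Cyph and −0.30 for eIF-4E. In the same order, bovine control minus vehicle was 0.0089 and 0.031, but −0.42, −0.75, −0.47 and −0.18. Whether probe match affects this measure between species was not tested. Of 18 measured endothelial markers, 2 (VWF and AQP1) were under 3 in bovine control, 5 in vehicle (also KDR, FLT1 and CLDN5) and 4 with GW9662 (VWF, AQP1, FLT1 and CLDN5), while PECAM1, CDH5, TEK, TIE1 and NOS3 were at 3 or more in every group. The 18 averaged 7.99 to 8.06 in bovine arrays, 7.34 to 7.45 in vehicle and 7.29 to 7.46 with GW9662. In bovine control 8 of them were higher (44.4%) and 4 lower (22.2%) than in vehicle, against 30.8% and 23.6% of named genes with a mean of 3 or more. Among markers of other cell types, 5 of 7 for smooth muscle and 6 of 8 for fibroblasts were under 3 in each group, as were 7 of 7 epithelial and 5 of 5 erythroid markers. The remaining smooth muscle markers were not dim: TAGLN ran from 8.87 to 9.15 in bovine arrays and 7.05 to 7.46 in vehicle, and SMTN from 5.00 to 5.31 and 3.17 to 4.24. The remaining fibroblast markers were bright: COL1A2 ran from 11.20 to 11.27 and 10.14 to 10.48, and COL3A1 from 10.35 to 10.45 and 10.42 to 10.48. Of 9 leukocyte markers, CD14 alone exceeded 3, and only in the ovine groups (6.69 ± 0.17 in vehicle, SD, n = 5). The level of the 7 smooth muscle markers averaged 3.66 to 3.80 in bovine arrays and 3.12 to 3.31 in vehicle arrays, and the part of any marker list in the member differences was not tested.

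Blocking PPARγ for 24 h moved no replication gene past the threshold. By limma, 0 of the 46 members passed, against 0.218% of all named genes, and 8 had an unadjusted p under 0.05, 7 of them higher with GW9662 and 1 lower. That is 17.4% of the members, against 20.1% of all named genes at the same unadjusted limit, 7.68% higher and 12.5% lower. The smallest adjusted p was 0.217, shared by CCNE2, TYMS, PRIM2 and CHAF1B. The 95% interval of the difference lay within 1 log2 unit of 0 for 45 members and within 0.5 for 35. A 2-fold change in probe set value was thus outside the interval for all but RFC4. The dim members E2F1, POLA2, PRIM1 and BRCA1 are counted in both figures. Their values cannot be told from no expression, so their narrow intervals do not bound a change in RNA.

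The small differences leaned upward. A positive difference was found for 32 of the 46 members (69.6%), against 39.3% of all named genes, and the median was 0.079 against −0.015. Among genes with a mean of 3 or more, 30 of 42 members (71.4%) and 52.6% of all genes were positive, with medians of 0.097 and 0.0091. The groups did not overlap for 1 member, CCNE2, or 2.17%, against 11.6% of named genes in either direction and 1.9% in the higher one. Averaged over the 46 members, the arrays ran from 6.28 to 6.51 in vehicle and from 6.47 to 6.56 with GW9662, so they overlapped. The members' median was smaller without vehicle replicate 1, at 0.043 with 30 members positive. In a fit with the integrity measure of each array as a covariate it was 0.036 with 24 positive. The matching figures for all named genes are not given here. Whether the members' lean beyond all named genes became smaller was therefore not tested.

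Between the species the replication genes stood higher in the bovine cells. Of the 46 members, 27 passed the threshold, 25 of them higher in bovine control than in ovine vehicle and 2 lower, while 19 did not pass. The background was high: 49.2% of all named genes passed, 21.9% higher and 27.4% lower, and the members' share called, 58.7%, was not far from it. The direction differed more. Among genes with a mean of 3 or more, 59.5% of members and 30.8% of all genes were higher, and 4.76% and 23.6% were lower. The median member difference was 0.30, over a range of −0.30 to 1.22, against a median of −0.022 for all named genes, and 37 members (80.4%) against 42.9% of genes had a positive difference. Counting only genes with a mean of 3 or more, 81% of members and 55.3% of all genes were positive, with medians of 0.31 and 0.041. Group values did not overlap for 20 members that were higher and 2 that were lower (47.8% together, against 50.8% of named genes, 17.8% higher and 33% lower). Of the named genes with a mean of 3 or more, 25.1% were higher and 19.6% lower without overlap, and of the 42 such members 20 and 1. Bovine arrays averaged 6.75 to 6.84 over the members, above all vehicle arrays.

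The bovine and vehicle groups differed in species, in the cells (BAEC against PAEC), in the DMSO that only the ovine cells are stated to have received, and in how well the bovine probes match. These cannot be told apart, and a species difference here means bovine control minus ovine vehicle. In a fit with the RNA integrity measure as a covariate 2 members passed, MCM7 (0.80, adjusted p = 0.0119) and MSH6 (1.09, adjusted p = 8.23e-05), and the median difference was 0.10. Of the 27 members called, 23 kept their sign in that fit. POLD1 was 0.90, MCM5 1.18, PRIM2 0.48 and RRM2 0.48 there, whereas POLE2 was 0.048, RFC2 −0.0014, RFC4 −0.14, POLA1 −0.19 and UHRF1 −0.21. After a second quantile normalisation 24 members passed, 21 higher and 3 lower, and CDT1, POLD2, RRM2 and UHRF1 did not, while CHEK1 did (−0.17).

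**Figure D1:**
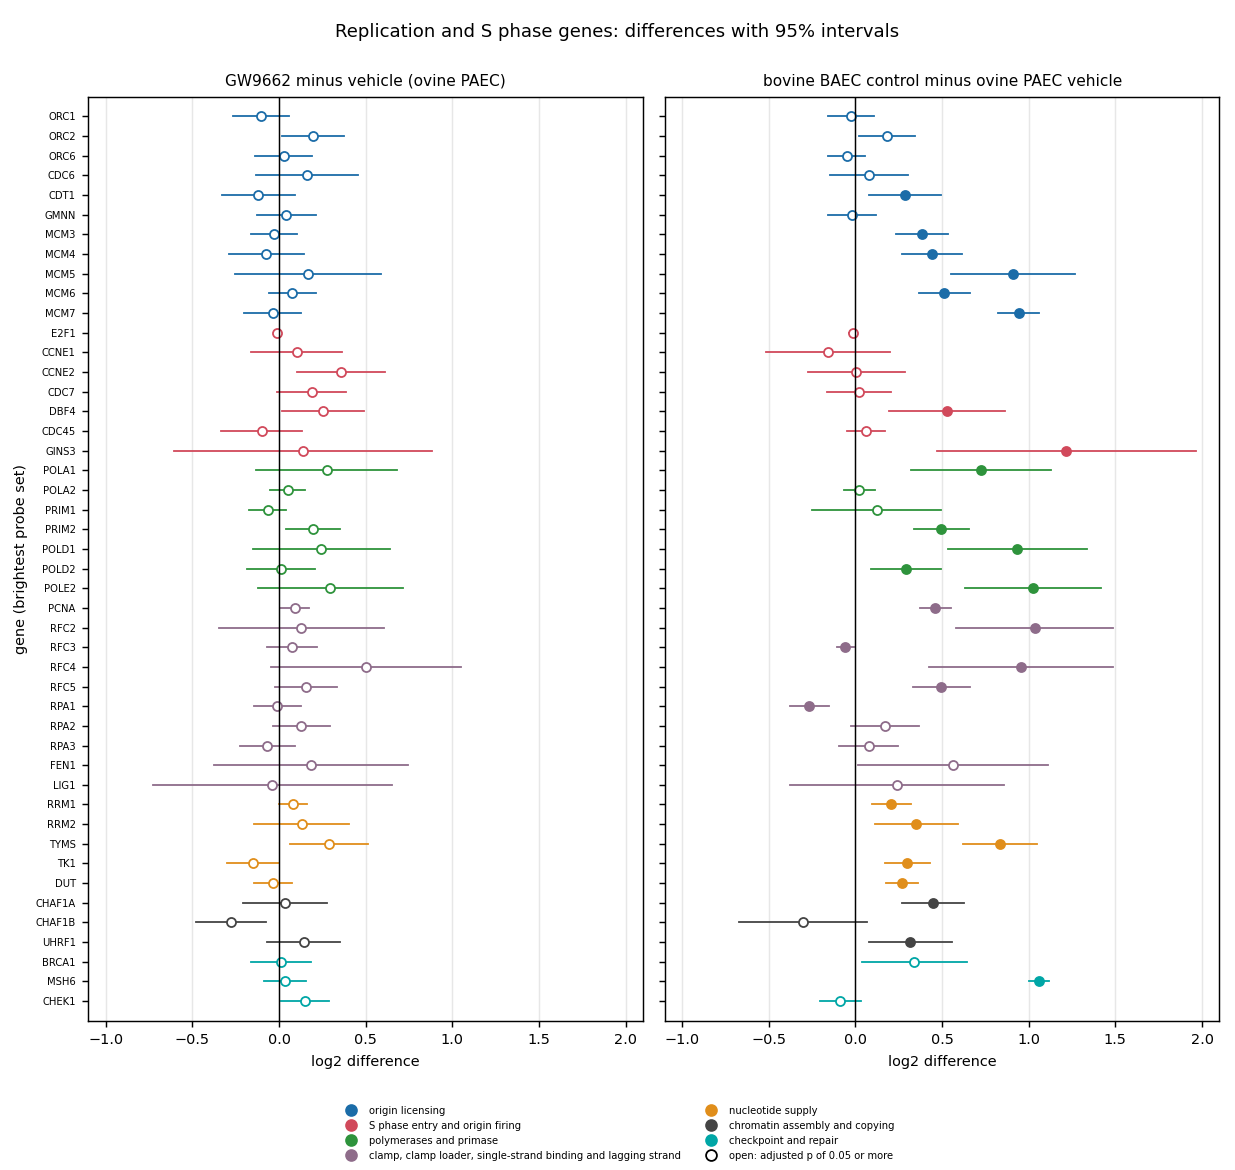
Log2 difference (x axis) with its 95% interval from limma for each of the 46 measured members (y axis, coloured by role), GW9662 minus vehicle on the left and bovine control minus ovine vehicle on the right; open circles have an adjusted p of 0.05 or more. All circles on the left are open, while 25 filled circles on the right lie above 0 and 2 below.

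Origin licensing held 11 measured genes, with 6 higher and 0 lower in bovine control and a median difference of 0.29. They were CDT1, the loading factor that GMNN restrains, and the helicase subunits MCM3, MCM4, MCM5, MCM6 and MCM7. ORC1, ORC2, ORC6, CDC6 and GMNN did not pass. Under GW9662 the 11 genes had a median difference of 0.027 and 6 were positive. All 5 measured MCM subunits were among those higher in bovine cells, and 0 of the 3 measured ORC subunits. Among named genes with a mean of 3 or more, 30.8% were higher and 23.6% lower. Those shares are the background for the counts of every role group below, each of which holds few genes.

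MCM7 gave 9.48, 9.63, 9.58, 9.56 and 9.49 in bovine control, 8.45, 8.73, 8.60, 8.62 and 8.63 in vehicle, and 8.67, 8.52, 8.51, 8.40 and 8.75 with GW9662. Bovine arrays stood apart from all ovine arrays, and the ovine groups were interleaved. The difference was 0.94 between species (SE 0.052, adjusted p = 1.22e-06, 1.92-fold) and −0.04 under GW9662 (SE 0.073, adjusted p = 0.743). It passed the threshold under every setting tried.

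MCM6 was the brightest licensing probe set, at 10.96, 10.76, 10.89, 10.87 and 10.89 in bovine control, 10.15, 10.34, 10.40, 10.51 and 10.39 in vehicle, and 10.36, 10.41, 10.48, 10.48 and 10.45 with GW9662. Every bovine value exceeded every ovine value, by 0.51 on average over vehicle (SE 0.064, adjusted p = 0.000271). Its GW9662 difference was 0.077 (SE 0.060, adjusted p = 0.394). A second MCM6 probe set, named after its values were seen, gave 6.92, 7.18, 7.24, 7.23 and 7.29 in vehicle and 7.62, 7.52, 7.79, 7.56 and 7.64 with GW9662. All treated arrays were above all vehicle arrays there, but the difference of 0.46 (SE 0.077) had an adjusted p of 0.0723. It passed in 3 of 17 other settings, and the 2 MCM6 probe sets thus gave unequal differences for one gene.

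MCM5 ran at 5.32, 5.11, 5.00, 5.20 and 4.94 in bovine control, against 4.41, 4.44, 4.41, 3.64 and 4.12 in vehicle and 4.41, 4.38, 4.31, 4.76 and 3.99 with GW9662. Bovine values were again all above the ovine ones, and replicate 4 was the lowest in vehicle. The species difference was 0.91 (SE 0.16, adjusted p = 0.00217), and the GW9662 difference was 0.17 (SE 0.19, adjusted p = 0.546). MCM3 and MCM4 were higher in bovine control by 0.39 and 0.44, with adjusted p of 0.00211 and 0.00212. CDT1 was higher by 0.29 (SE 0.092, adjusted p = 0.0338), a call kept in 5 of the 10 fits that each left out 1 array. It was lost without bovine replicates 2, 3 or 5 or vehicle replicates 2 or 4, at an adjusted p of up to 0.0721.

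ORC2, a core subunit of the origin recognition complex, read 7.26, 7.24, 7.25, 7.34 and 7.46 in vehicle and 7.48, 7.63, 7.24, 7.64 and 7.53 with GW9662. Treated array 3 sat with the vehicle arrays while the rest lay above them. The difference was 0.20 (SE 0.079, unadjusted p = 0.0348, adjusted p = 0.222). In bovine control ORC2 read 7.52, 7.32, 7.71, 7.46 and 7.45, and was 0.18 above vehicle (adjusted p = 0.0635).

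**Figure D2:**
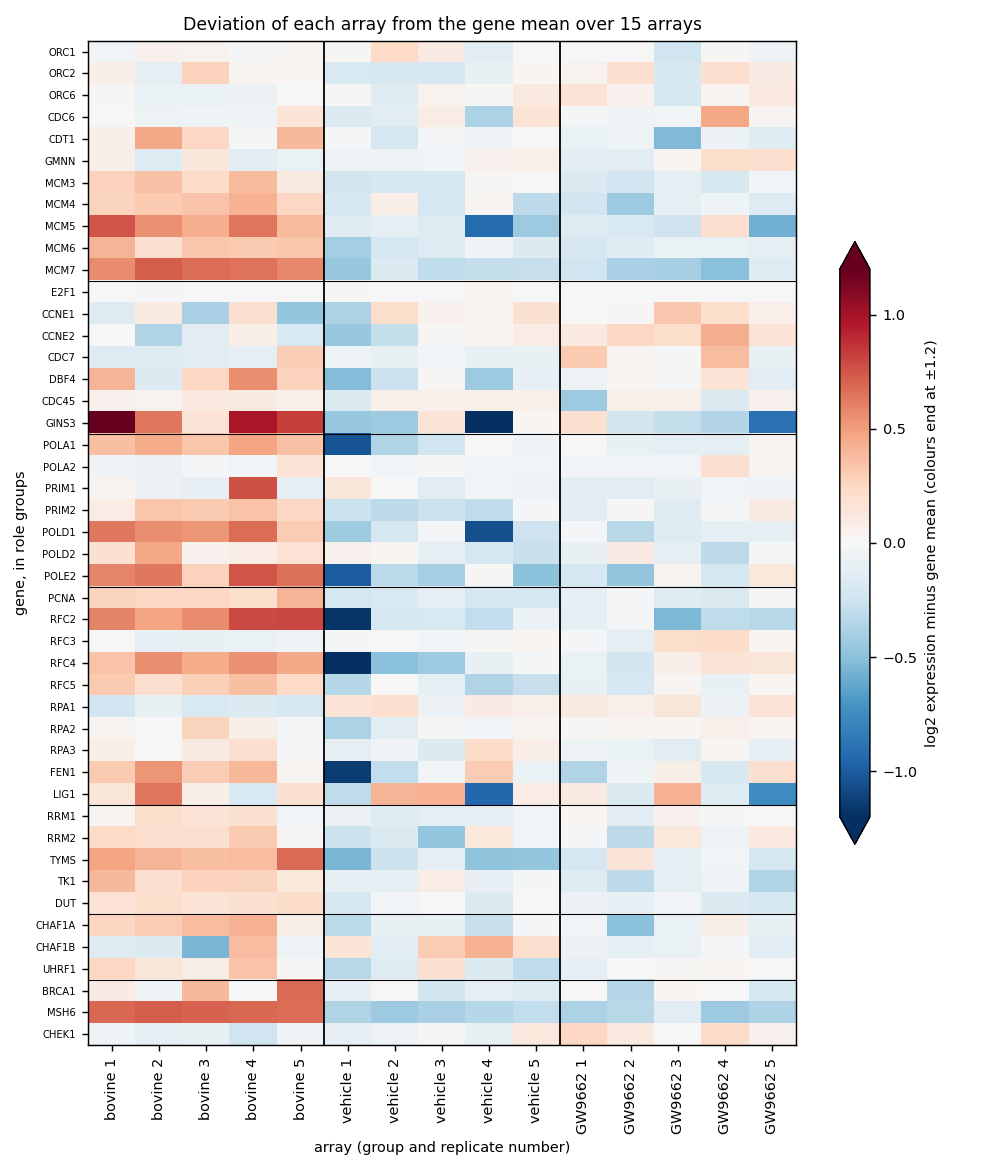
Each cell is the log2 value of 1 member (rows, in role groups split by lines) on 1 array (columns) minus that gene's mean over the 15 arrays, with colours ending at ±1.2. Red fills most of the MCM, polymerase and nucleotide rows of the bovine arrays, and vehicle replicate 1 holds dark blue cells at RFC2, RFC4, FEN1, POLA1 and POLE2.

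S phase entry and origin firing counted 7 measured genes, of which DBF4 and GINS3 were higher in bovine control and 0 were lower. The median difference was 0.020 between species and 0.14 under GW9662. E2F1, the activator that turns on much of this programme, was dim on every array, at 2.16 to 2.20. Its probe set therefore gives no measured level for E2F1.

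CCNE2, cyclin E2, activates CDK2 at the start of S phase. It read 8.16, 8.32, 8.62, 8.64 and 8.70 in vehicle, 8.73, 8.86, 8.82, 9.05 and 8.78 with GW9662, and 8.62, 8.25, 8.47, 8.69 and 8.43 in bovine control. All treated arrays exceeded all vehicle arrays, though the closest pair differed by little, and bovine values overlapped vehicle. The GW9662 difference was 0.36 (SE 0.11, unadjusted p = 0.0116, adjusted p = 0.217, 1.28-fold), and the species difference was 0.0041 (SE 0.12, adjusted p = 0.98). Cyclin E1, CCNE1, differed by 0.10 under GW9662 (SE 0.12, adjusted p = 0.55), or 0.0036 without vehicle replicate 1, and by −0.16 between species (SE 0.16, adjusted p = 0.411).

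DBF4, the regulatory subunit of the CDC7 kinase, read 6.86, 6.28, 6.70, 6.999 and 6.72 in bovine control, 5.93, 6.18, 6.46, 6.01 and 6.34 in vehicle, and 6.38, 6.47, 6.42, 6.61 and 6.31 with GW9662. Bovine replicate 2 lay within the vehicle range and the other bovine arrays above it. The species difference of 0.53 (SE 0.15, adjusted p = 0.0212) lost its call without bovine replicate 1 (adjusted p = 0.0514). Under GW9662 the difference was 0.25 (SE 0.11, unadjusted p = 0.0396, adjusted p = 0.225). CDC7 itself was near the dim limit, with means of 3.03 in vehicle and 3.22 with GW9662 (adjusted p = 0.245).

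GINS3 belongs to the GINS complex, which joins CDC45 and MCM to form the active helicase. Its values were 5.13, 4.55, 4.08, 4.89 and 4.75 in bovine control, 3.46, 3.48, 4.08, 2.37 and 3.94 in vehicle, and 4.11, 3.70, 3.63, 3.57 and 3.03 with GW9662. Bovine replicate 3 and vehicle replicate 3 nearly met, and vehicle replicate 4 was far below its group. This was the widest spread of any member, with an SD of 0.67 in vehicle. The species difference was the largest among members, 1.22 (SE 0.33, adjusted p = 0.0191, 2.32-fold), and a second GINS3 probe set gave 0.68 (adjusted p = 0.00729). Without vehicle replicate 4, whose value was under the dim limit of 3, it was 0.94, less than the 1.06 of MSH6 over all arrays. Its call was lost with a replicate block and with the integrity covariate. GW9662 differed from vehicle by 0.14 (SE 0.33, adjusted p = 0.779). CDC45 showed −0.10 and 0.061 in the 2 comparisons, with adjusted p of 0.509 and 0.297.

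Polymerases and primase were measured by 7 genes, and 5 were higher in bovine control with 0 lower: POLA1, PRIM2, POLD1, POLD2 and POLE2. Neither POLA2 nor PRIM1, both dim, passed. All 7 species differences were positive, with a median of 0.50, and under GW9662 6 of 7 were positive with a median of 0.19, or 0.10 without vehicle replicate 1.

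PRIM2, the large primase subunit that helps lay down RNA primers, read 6.12, 6.37, 6.35, 6.38 and 6.28 in bovine control, 5.77, 5.71, 5.78, 5.73 and 6.02 in vehicle, and 5.90, 6.04, 5.88, 6.02 and 6.13 with GW9662. Vehicle replicate 5 lay among the treated arrays and the other vehicle arrays below them. The GW9662 difference was 0.19 (SE 0.069, unadjusted p = 0.0207, adjusted p = 0.217). In bovine cells it was 0.50 higher than vehicle (SE 0.070, adjusted p = 0.000569), with no overlap.

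POLA1, the catalytic subunit of polymerase alpha, was the brightest of its group at 7.37, 7.46, 7.35, 7.48 and 7.37 in bovine control, 5.98, 6.65, 6.77, 7.01 and 6.97 in vehicle, and 7.01, 6.93, 6.90, 6.90 and 7.04 with GW9662. Vehicle replicate 1 was far below every other array, while both other groups were tight. The species difference was 0.73 (SE 0.18, adjusted p = 0.0132), and a second, dimmer probe set gave 0.75. Under GW9662 it was 0.28 (SE 0.18, adjusted p = 0.328), or 0.10 without vehicle replicate 1. The second probe set gave −0.09 there (adjusted p = 0.536).

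POLE2, an accessory subunit of the leading-strand polymerase, read 6.61, 6.65, 6.30, 6.78 and 6.68 in bovine control, 5.02, 5.70, 5.62, 6.03 and 5.53 in vehicle, and 5.81, 5.55, 6.07, 5.81 and 6.15 with GW9662. All bovine arrays were above all ovine arrays, and vehicle replicate 1 was again the lowest. It was 1.03 higher in bovine control (SE 0.17, adjusted p = 0.00177), and GW9662 differed by 0.30 (SE 0.19, adjusted p = 0.315), or 0.16 without that array.

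POLD1, the catalytic subunit of polymerase delta, gave 4.84, 4.78, 4.75, 4.89 and 4.52 in bovine control, 3.78, 4.01, 4.19, 3.16 and 3.96 in vehicle, and 4.20, 3.88, 4.06, 4.09 and 4.09 with GW9662. The species groups were fully separated, with vehicle replicate 4 the lowest. The difference was 0.93 (SE 0.18, adjusted p = 0.00357), against 0.24 under GW9662 (SE 0.17, adjusted p = 0.362), or 0.081 without that array. POLD2, a small subunit of the same enzyme, was 0.29 higher in bovine control (adjusted p = 0.0299), a call lost without bovine replicates 1 or 5 or vehicle replicates 4 or 5 (adjusted p up to 0.0625).

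**Figure D3:**
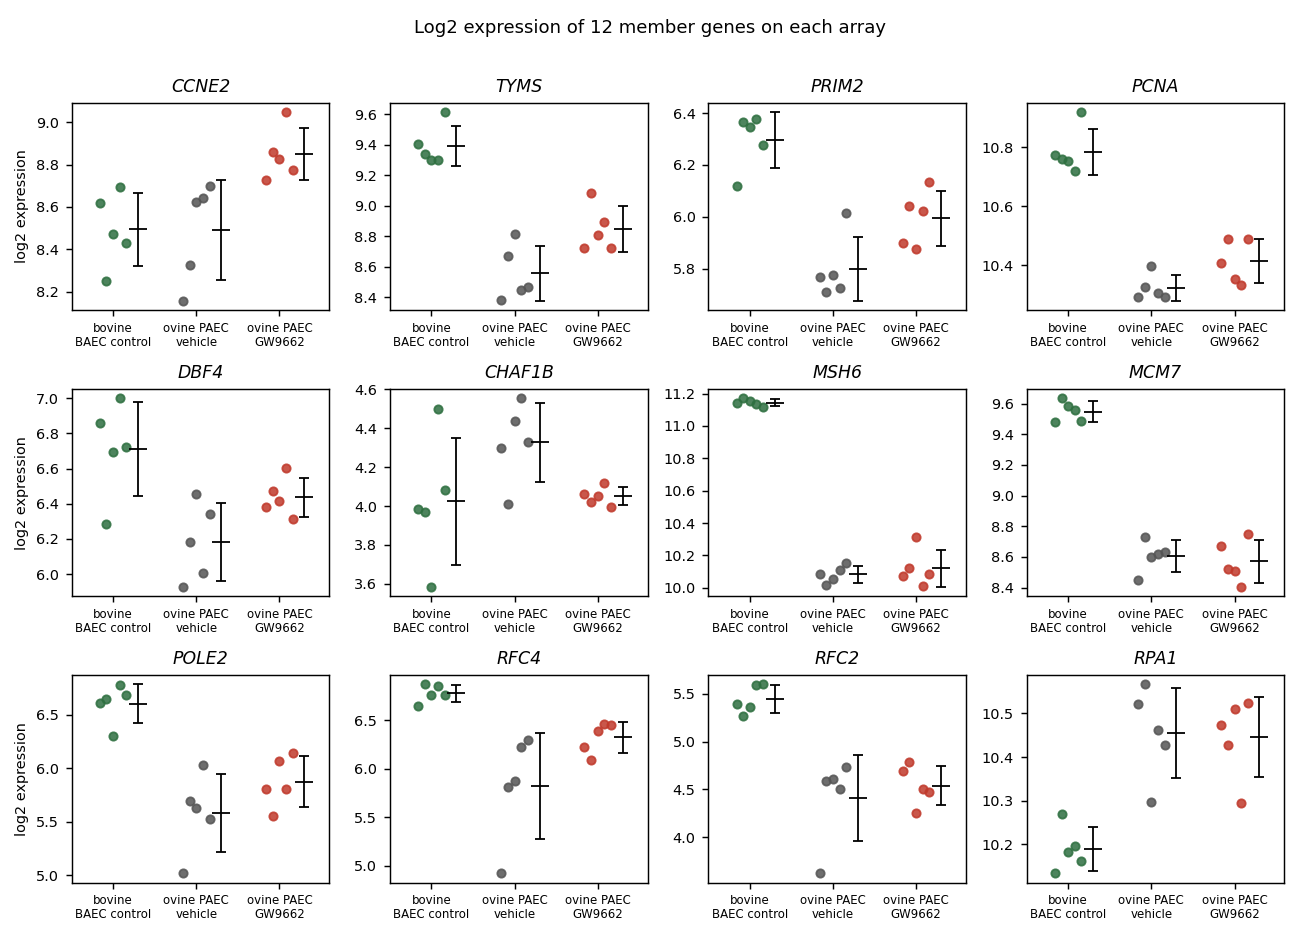
Log2 expression (y axis) of 12 members on each array, with points for the 5 arrays of bovine control, ovine vehicle and ovine GW9662 and bars for the mean and SD; each panel has its own scale. MSH6, MCM7, RFC2 and PCNA separate bovine from ovine arrays, RPA1 does so in the other direction, and CCNE2 alone has all treated arrays above all vehicle arrays.

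The clamp, its loader, single-strand binding and lagging-strand genes numbered 10, with 4 higher (PCNA, RFC2, RFC4 and RFC5) and 2 lower (RPA1 and RFC3) in bovine control. The median difference was 0.35 between species and 0.11 under GW9662, where 7 of 10 were positive. Without vehicle replicate 1 the GW9662 median was 0.033 and 6 were positive. Both members called lower in bovine cells therefore came from this group. Of 9 other settings that kept every array, RPA1 passed in 8 and RFC3 in 1.

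PCNA, the sliding clamp, read 10.77, 10.76, 10.75, 10.72 and 10.92 in bovine control, 10.29, 10.33, 10.40, 10.31 and 10.29 in vehicle, and 10.41, 10.49, 10.35, 10.33 and 10.49 with GW9662. Bovine values were all above the ovine ones, and the ovine groups overlapped at their edges. It was 0.46 higher in bovine control (SE 0.039, adjusted p = 1.95e-05). Under GW9662 the difference was 0.091 (SE 0.037, unadjusted p = 0.0371, adjusted p = 0.222), a change of 1.07-fold.

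RFC2 and RFC4 are subunits of replication factor C, which opens the clamp and loads it. RFC2 read 5.39, 5.27, 5.36, 5.60 and 5.60 in bovine control, 3.62, 4.59, 4.61, 4.50 and 4.73 in vehicle, and 4.69, 4.78, 4.26, 4.50 and 4.47 with GW9662. Bovine arrays lay above all ovine arrays, and vehicle replicate 1 lay far below its group. The species difference was 1.03 (SE 0.20, adjusted p = 0.00396), and 0.84 without that array (adjusted p = 0.000113). GW9662 differed by 0.13 (SE 0.21, adjusted p = 0.68) and by −0.068 without it.

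RFC4 had 6.65, 6.87, 6.76, 6.85 and 6.76 in bovine control, 4.92, 5.81, 5.87, 6.22 and 6.30 in vehicle, and 6.23, 6.09, 6.38, 6.47 and 6.45 with GW9662. Vehicle replicate 1 was once more the lowest, and treated arrays overlapped the top of the vehicle range. Its GW9662 difference of 0.50 (SE 0.24, 95% interval −0.05 to 1.05, adjusted p = 0.25) was the largest of any member and came to 0.27 without that array. Between species it was 0.95 (SE 0.23, adjusted p = 0.0131).

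RFC3 read 7.52, 7.43, 7.43, 7.45 and 7.47 in bovine control and 7.50, 7.52, 7.49, 7.54 and 7.54 in vehicle, so the groups overlapped. Its difference of −0.06 (SE 0.021, adjusted p = 0.0486) sat at the threshold and passed in 3 of 10 fits with 1 array left out, those without bovine replicate 1 and without vehicle replicates 1 and 3 (adjusted p up to 0.0993 in the others). Of 9 settings that kept every array, it passed in 1, the second quantile normalisation. RFC5 was 0.50 higher in bovine control (SE 0.073, adjusted p = 0.000769). With GW9662, RFC3 and RFC5 differed from vehicle by 0.075 and 0.15, with adjusted p of 0.424 and 0.262.

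RPA1, the largest subunit of the protein that coats single-stranded DNA, ran the other way. Its values were 10.13, 10.27, 10.18, 10.20 and 10.16 in bovine control, 10.52, 10.57, 10.30, 10.46 and 10.43 in vehicle, and 10.47, 10.43, 10.51, 10.29 and 10.52 with GW9662. Every bovine array was below every ovine array. The difference was −0.27 (SE 0.049, adjusted p = 0.00311, 1.20-fold lower), and −0.01 under GW9662 (SE 0.059, adjusted p = 0.922). Its partners RPA2 and RPA3 differed by 0.17 and 0.077 between species, with adjusted p of 0.128 and 0.396.

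FEN1 trims Okazaki fragments and LIG1 seals them. FEN1 read 6.60, 6.82, 6.59, 6.69 and 6.32 in bovine control and 5.15, 5.99, 6.26, 6.59 and 6.21 in vehicle, a difference of 0.56 with overlap (SE 0.24, adjusted p = 0.081, or 0.0461 without vehicle replicate 4). Vehicle replicate 1 was the lowest array, and without it the difference was 0.34 (adjusted p = 0.0676). With the integrity covariate it was −0.68. LIG1's brightest probe set spread from 3.66 to 5.02 in vehicle, and its difference was 0.24 (SE 0.27, adjusted p = 0.467). A second LIG1 probe set, named after its values were seen, was 0.83 higher in bovine control (SE 0.20, adjusted p = 0.0128). So the 2 LIG1 probe sets fell on different sides of the threshold with the same sign.

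All 5 nucleotide supply genes were higher in bovine control, with a median difference of 0.30, and 3 of 5 were positive under GW9662 with a median of 0.082. TYMS, thymidylate synthase, read 9.41, 9.34, 9.30, 9.30 and 9.61 in bovine control, 8.38, 8.67, 8.82, 8.45 and 8.47 in vehicle, and 8.72, 9.08, 8.81, 8.89 and 8.73 with GW9662. Bovine arrays stood well above both ovine groups, and vehicle replicate 3 lay within the treated range. The species difference was 0.83 (SE 0.095, adjusted p = 0.000147). Under GW9662 it was 0.29 (SE 0.099, unadjusted p = 0.017, adjusted p = 0.217).

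DUT, the enzyme that keeps uracil out of DNA, was the brightest member of the group, at 11.13, 11.17, 11.12, 11.14 and 11.17 in bovine control, 10.77, 10.93, 10.96, 10.80 and 10.95 in vehicle, and 10.88, 10.86, 10.93, 10.80 and 10.76 with GW9662. Bovine arrays were tight and above every ovine array, whose groups were interleaved. It was 0.27 higher in bovine control (SE 0.040, adjusted p = 0.00089) and −0.03 under GW9662 (SE 0.048, adjusted p = 0.627), and a second probe set gave 0.33 and 0.01. RRM1 and RRM2, the subunits of ribonucleotide reductase, were 0.21 and 0.35 higher in bovine control, with adjusted p of 0.0119 and 0.027. RRM2 lost its call without bovine replicates 1, 2, 3 or 4 or vehicle replicates 1 or 2 (adjusted p up to 0.0597). TK1, thymidine kinase, was 0.30 higher (SE 0.057, adjusted p = 0.00366), and under GW9662 it differed by −0.15 (SE 0.067, unadjusted p = 0.0524, adjusted p = 0.236).

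Chromatin assembly and copying held 3 measured genes. CHAF1A, the large subunit of the histone chaperone CAF-1, was 0.45 higher in bovine control (SE 0.079, adjusted p = 0.00229) and 0.035 under GW9662 (SE 0.11, adjusted p = 0.83). Its partner CHAF1B read 4.30, 4.01, 4.44, 4.55 and 4.33 in vehicle, 4.06, 4.02, 4.05, 4.12 and 4.00 with GW9662, and 3.99, 3.97, 3.58, 4.50 and 4.08 in bovine control. Treated arrays were tightly grouped and below 4 of the 5 vehicle arrays, and vehicle replicate 2 lay at their lower edge. Its GW9662 difference was −0.28 (SE 0.089, unadjusted p = 0.0127, adjusted p = 0.217), the only negative one of the 8 members under the unadjusted limit. Between species it was −0.30 (SE 0.16, adjusted p = 0.145, or 0.0437 without bovine replicate 4), so the CAF-1 subunits had opposite signs there.

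UHRF1, which carries DNA methylation over to the new strand, read 9.47, 9.37, 9.29, 9.56 and 9.23 in bovine control, 8.88, 9.06, 9.41, 9.05 and 8.91 in vehicle, and 9.12, 9.23, 9.23, 9.24 and 9.21 with GW9662. Vehicle replicate 3 lay within the bovine range and the rest of its group below it. The species difference of 0.32 (SE 0.11, adjusted p = 0.0386) kept its call only in the fits without bovine replicate 5 or without vehicle replicate 3, with an adjusted p of up to 0.0816 in the others. A second UHRF1 probe set differed by 0.87 (SE 0.17, adjusted p = 0.00419). Under GW9662 the brightest differed by 0.14 (SE 0.092, adjusted p = 0.327).

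Of the 3 checkpoint and repair genes, MSH6 alone passed. MSH6, a mismatch recognition protein that travels with the fork, read 11.14, 11.17, 11.15, 11.13 and 11.12 in bovine control, 10.09, 10.01, 10.06, 10.11 and 10.15 in vehicle, and 10.07, 10.12, 10.31, 10.01 and 10.08 with GW9662. The bovine arrays formed a narrow band far above both ovine groups. The species difference was 1.06 (SE 0.025, adjusted p = 4.29e-09, 2.08-fold) and passed under every setting tried, while the GW9662 difference was 0.036 (SE 0.054, adjusted p = 0.654).

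CHEK1, the kinase that answers stalled forks, read 7.21, 7.25, 7.33, 7.23 and 7.44 in vehicle and 7.56, 7.43, 7.31, 7.54 and 7.36 with GW9662. The groups overlapped, with most treated arrays toward the top. Its GW9662 difference was 0.15 (SE 0.061, unadjusted p = 0.0372, adjusted p = 0.222) and its species difference −0.09 (SE 0.052, adjusted p = 0.185). BRCA1 was dim in vehicle at 2.80 ± 0.08 (SD, n = 5) and at 3.14 ± 0.31 in bovine control (adjusted p = 0.0634).

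Of 17 probe sets of members other than the brightest, 10 had a mean of 3 or more, and 6 of these were higher in bovine control and 0 lower. The bovine difference had the sign of the brightest set in 9 of the 10 and in 10 of the 17, and the GW9662 difference in 6 of the 10 and in 10 of the 17. Over all 63 member probe sets 33 passed between species, 31 higher and 2 lower, against 45.2% of all probe sets, 15.6% higher and 29.6% lower, and 0 of 63 passed under GW9662 (0.183% of all probe sets). For no gene did 2 probe sets pass in opposite directions.

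Other genes of the pathway were read from lists of their own. Of 29 other replication genes, 17 were higher (58.6%) and 1 was lower (3.45%) in bovine control, with a median of 0.24. Among named genes with a mean of 3 or more, 30.8% were higher and 23.6% lower. The higher ones included NASP, a histone chaperone (1.09, SE 0.053, adjusted p = 5.36e-07), and MCMBP, which binds MCM proteins (1.03, SE 0.11, adjusted p = 9.91e-05). TIMELESS, which steadies stalled forks with TIPIN, was the lower one (−1.37, SE 0.076, adjusted p = 1.29e-06). Under GW9662 0 of the 29 passed, and 4 (13.8%) had an unadjusted p under 0.05, a smaller share than the 20.1% of all named genes. The smallest p-values were those of ORC4, an origin recognition subunit (0.36, SE 0.095, adjusted p = 0.202), and SSRP1, a histone chaperone subunit (−0.17, SE 0.056, adjusted p = 0.217).

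The list of E2F, RB and cyclin D genes went in both directions. It also holds MYBL2 and CCNA2, which act later in the cell cycle, so its counts are not those of upstream regulators alone. Of 14 measured, 3 were higher (21.4%) and 5 lower (35.7%) in bovine control, with a median of −0.0046. All named genes had 21.9% and 27.4%, and those with a mean of 3 or more 30.8% and 23.6%. CCND2, cyclin D2, was 3.32 higher (SE 0.22, adjusted p = 3.76e-06), but its vehicle mean of 2.88 was dim, so that its level there is only bounded. CCND1, cyclin D1, was lower by 1.52 (difference −1.52, SE 0.15, adjusted p = 6.34e-05), and RB1, the brake on E2F, differed by −0.38 (SE 0.13, adjusted p = 0.0448). MYBL2, a factor of the late cell cycle, was 0.99 higher (SE 0.15, adjusted p = 0.000892).

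CCNA2, cyclin A2, which carries cells through S phase toward mitosis, was the one gene of this list that passed the threshold for GW9662. It read 5.26, 5.34, 5.35, 5.21 and 5.38 in vehicle, 6.09, 5.90, 6.02, 5.84 and 5.79 with GW9662, and 6.61, 6.31, 6.65, 6.42 and 6.53 in bovine control. The 3 groups did not overlap and stood in that order. It was 0.62 higher with GW9662 (SE 0.061, adjusted p = 0.0111) and 1.20 above vehicle in bovine control (SE 0.068, adjusted p = 1.45e-06). The GW9662 call was lost in the fits with a replicate block or the integrity covariate, where no probe set of the array passed. E2F5, RB1 and CCND1 differed by 0.20, 0.27 and 0.21 under GW9662, with adjusted p of 0.123, 0.228 and 0.421.

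Among 10 CDK inhibitor and p53 arrest genes, 3 were higher (30%) and 5 lower (50%) in bovine control, against 30.8% and 23.6% of named genes with a mean of 3 or more. Under GW9662 0 passed, and 3 (30%) had an unadjusted p under 0.05, against 20.1% of all named genes. CDKN1A, p21, which inhibits CDK2 and binds PCNA, was lower in bovine control (−1.61, SE 0.085, adjusted p = 8.95e-07), as was CCNG1 (−0.77, SE 0.048, adjusted p = 2.95e-06). Under GW9662 CDKN1A differed by −0.15 (SE 0.084, adjusted p = 0.288), and the smallest p in the list was that of CDKN1C, a CDK inhibitor (0.29, SE 0.11, adjusted p = 0.218). MKI67, TOP2A and CDKN1B had no probe set with 1 symbol and were not analysed here.

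Mitosis and spindle genes act after replication is done. With GW9662, 2 of 33 passed (6.06%), against 0.218% of all named genes. The 2 were higher: SGO2, a protector of centromere cohesion (0.45, SE 0.061), and HMMR, a spindle protein (0.42, SE 0.059). Both had an adjusted p of 0.0439, and both calls were lost with a replicate block or the integrity covariate. Of the 33 differences, 30 were positive (90.9%), with a median of 0.29. Among named genes with a mean of 3 or more, 52.6% were positive. An unadjusted p under 0.05 was found for 18 higher and 1 lower (57.6%), against 20.1% of all named genes. The members' median in the same comparison was 0.079. In bovine control 31 of the 33 were higher (93.9%) and 1 lower (3.03%), against 30.8% and 23.6% of named genes with a mean of 3 or more. The median was 0.97, beside 0.30 for the members. Without vehicle replicate 1 the mitotic medians were 0.24 and 0.90.

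**Figure D4:**
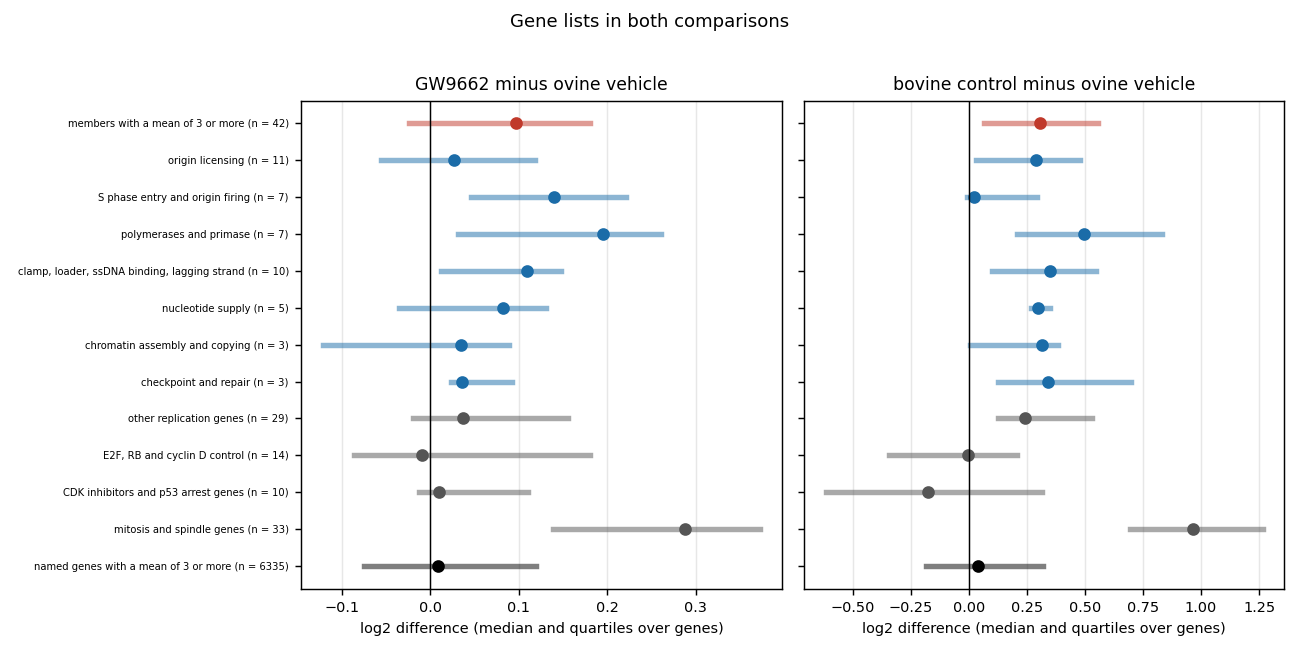
Median (point) and quartiles (bar) of the log2 difference over the genes of each list, GW9662 minus ovine vehicle on the left and bovine control minus ovine vehicle on the right, with a different x scale in each panel. The brighter members have medians of 0.097 and 0.31, between the median of all brighter named genes (0.0091 and 0.041) and that of the mitosis and spindle genes (0.29 and 0.97).

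The members' median SD among the arrays of a group was 0.11 in bovine control, 0.15 in vehicle and 0.14 with GW9662, beside 0.10, 0.14 and 0.11 for all named genes with a mean of 3 or more. Without vehicle replicate 1 the vehicle figure was 0.12 for members and 0.12 for genes.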

How the data were processed

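The authors deposited log2 expression values made with RMA, per the submitters' processing notes; the RMA version is not given in the sources used here. RMA corrects background, quantile-normalises arrays and summarises probes, which can shrink differences between groups. The 24128 probe sets ran from 0.899 to 14.07. The 112 control probe sets were left out, and of the remaining 24016, 13292 had 1 gene symbol in the platform annotation, 86 several and 10638 none. Precision is limited by the number of arrays.

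Each comparison was fitted on its own 10 arrays (lmFit and eBayes, limma 3.58.1, R 4.3.3), with Benjamini-Hochberg adjustment over 24016 probe sets. Intervals are 95% from the moderated fit. Both fits were checked on simulated data of 24016 probe sets. For GW9662, 70% of changes of 0.5 and 95% of changes of 1 were recovered with 11 false calls, and between species 68% and 96% with 15. The changes were planted in probe sets drawn at random from all 24016, dim ones included, with independent normal noise. These rates therefore do not give the recovery for the members.

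The members and lists were chosen with earlier results of these data known. Members named were the 8 of smallest p for GW9662, up to 8 called per direction between species and the brightest of each role, plus up to 4 called genes per pathway list, or 2 where none was called, and a few regulators whatever their values. Replicate numbers do not pair the samples, since correlations of same-numbered deviations ran from −0.19 to 0.17 and from −0.097 to 0.094. Alternatives tried were a second quantile normalisation, centring of arrays, a trended and robust variance, leaving out dim probe sets, all 15 arrays in 1 fit, a replicate block, the 3′ minus 5′ covariate, other summaries of probe sets and leaving out each array. Fits of every member probe set, and list and role medians without vehicle replicate 1, were chosen after seeing the data. A planned promoter motif search was not run.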

Additional observations from a re-analysis of the deposited data

Results flagged for a closer look

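In 72 sets of 5 arrays (each named member, the member mean and the 3′ minus 5′ difference in each group), 4 had 1 array far from the other 4 by Dixon's criterion, where chance gives about 3.6. Vehicle replicate 5 had 6.02 for PRIM2, against 5.71 to 5.78 in the other vehicle arrays. Bovine replicate 5 had 10.9 for PCNA, against 10.7 to 10.8 in the others. Vehicle replicate 1 had 3.62 for RFC2, against 4.50 to 4.73. GW9662 replicate 1 had 9.12 for UHRF1, against 9.21 to 9.24.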

How the results depend on the processing

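Taken by its brightest probe set or the mean of its probe sets, no member passed for GW9662 under any setting tried in limma. In these fits 4 to 11 members had an unadjusted p under 0.05. The second MCM6 probe set passed in 3 of 17 settings: the second quantile normalisation, dim probe sets left out, and all 15 arrays fitted. The members' GW9662 median ran from 0.043 to 0.097 when each array was left out in turn, lowest without vehicle replicate 1. Between species, 23 to 27 members passed in those fits and the median ran from 0.28 to 0.32; 21 of the 27 members kept their call in all 10. Of the 19 members that did not pass, 11 did not pass under any setting. The replicate block left 20 members called between species and 0 for GW9662. With the 3′ minus 5′ covariate, 2 members passed between species and the median was 0.10. The groups do not overlap on that measure, so covariate and group cannot be fully told apart.

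Over all probe sets, 44 passed for GW9662, 67 with arrays centred, 76 without dim probe sets, 26 with trended and robust variance, 237 with all 15 arrays, and 0 with the replicate block (3205 at an unadjusted p under 0.05) or the covariate (1312). Leaving out each array gave 9 to 62, and the count was 18 when vehicle array 2 was left out, 9 for vehicle array 5, and 23, 22, 20 and 17 for GW9662 arrays 1, 2, 4 and 5. After a second quantile normalisation 38 were higher and 24 lower, against 35 and 9. Between species 10860 passed, 3740 higher and 7120 lower, against 6455 with arrays centred (3740 higher, 2715 lower), 6802 after a second quantile normalisation (3224 higher, 3578 lower), 6586 without dim probe sets (3708 higher, 2878 lower), 5396 with the block (3031 higher, 2365 lower) and 1601 with the covariate. The cause of these shifts was not tested, apart from the fewer probe sets adjusted over where dim ones were left out. The dim probe sets, which include 4 members, cannot be told from no expression.

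Over all settings, 23 of the 46 members kept the sign of their GW9662 difference and 30 that of their bovine difference. The covariate turned 14 and 12 of them, and 13 and 6 turned when 1 array was left out. Of the 27 called between species, 4 turned, all with the covariate. FEN1 gave −0.37 and −0.68 with the covariate in the 2 comparisons, RFC2 −0.64 for GW9662, and GINS3 −0.13 for GW9662 without vehicle replicate 4. Among the members named by the rule, under GW9662 DUT was 0.0076 with arrays centred, and MSH6 was −0.012 after a second quantile normalisation and −0.012 without GW9662 replicate 3, in a range of −0.012 to 0.063 over the arrays left out. With the covariate the GW9662 differences were −0.010 for TYMS, −0.018 for PCNA, −0.032 for MCM6, −0.20 for POLA1 and −0.11 for UHRF1. Between species the covariate gave −0.0014 for RFC2, −0.14 for RFC4, −0.19 for POLA1 and −0.21 for UHRF1. CCNE2, at 0.0041 between species, was −0.028 after a second quantile normalisation, −0.45 with the covariate, and −0.079 to 0.065 over the arrays left out, negative without bovine replicates 1 or 4 or vehicle replicates 1 or 2. The cause was not tested.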
